A study of Arabidopsis thaliana with 6 samples.

Results

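The 10 genes described here belong to the abscisic acid pathway of Arabidopsis thaliana and were chosen by locus identifier from the 21693 rows of the count table. They are the synthesis gene NCED3 (AT3G14440), the phosphatase genes HAI1 (AT5G59220), HAI2 (AT1G07430), HAI3 (AT2G29380), ABI1 (AT4G26080), ABI2 (AT5G57050) and HAB1 (AT1G72770), and the responsive genes RD26 (AT4G27410), RD22 (AT5G25610) and RD29B (AT5G52300). All 10 had a row, and 9 held enough counts to be tested, HAI3 being the exception. RNA-seq was done on shoots of seedlings aged 8 days, 3 libraries from the wild type (WT) and 3 from the phod1 mutant, and neither the gene behind phod1 nor the number of plants per library is stated in the labels. Both genotypes grew without any further treatment on agar (1.1%) with 1/2 Murashige and Skoog nutrients and 1.0% sucrose, at 23 °C under a cycle of 16 h light and 8 h dark. By its title the study concerns SHORT-ROOT, PHOSPHATE1 and phosphate allocation, and its single contrast asks how phod1 shoots differ from WT shoots.

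Abscisic acid is the hormone through which plants respond to drought, salt and cold, close their stomata and keep seeds dormant. It is cut from plastid carotenoids by NCED enzymes and removed by CYP707A hydroxylases. When it binds a PYR/PYL receptor, the complex blocks the clade A protein phosphatases (PP2Cs), which otherwise hold SnRK2 kinases inactive. The freed kinases activate ABF-type bZIP transcription factors, and these bind the abscisic acid response element (ABRE) before genes such as RD29B. The phosphatase genes are themselves induced by the hormone, which closes a negative feedback loop.

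Deposited totals were 33183463 to 54720319 estimated count units per library, in which 1 sequenced fragment was worth about 4 units, so a floor of 3 fragments stood at 0.256 to 0.404 counts scaled to a common library size (CPM, counts per 1e6). Floors cover counting error only. Libraries of 1 genotype correlated at 0.945 to 0.951 in log2 CPM, and libraries of different genotypes at 0.885 to 0.893. Markers of green tissue were abundant, with a summed level of 5 genes of 39648 to 42433 CPM over the WT libraries and 16617 to 21709 CPM over those of phod1, and 3 of the 5 fell. The root hair gene EXPA7 was at 0 in all libraries, while PYK10, a gene of roots and hypocotyls, carried nearly all of the root list's 210.01 to 237 CPM over the WT libraries and 230.2 to 278 CPM over those of phod1. Of 6 guard cell markers 1 fell, 5 did not pass, and none was at 0 throughout. Their summed level was 213 to 236 CPM over the WT libraries and 196 to 243 CPM over those of phod1. Within this sum GC1 was the marker that fell. FAMA, which did not pass, went from 13.9 ± 8.12 to 34.8 ± 1.84 CPM (SD, n = 3 each; log2 1.32, SE 0.398, adjusted p = 0.0588 by edgeR). The 5 seed markers, of storage proteins, oil bodies and a peroxiredoxin, summed to 0 to 0.303 CPM over the WT libraries and 1.95 to 2.40 CPM over those of phod1. Of these, 2 could be tested, CRU3 and CRU1, and both passed the low-count filter through their phod1 counts alone. CRU3 went from 0 in all WT libraries to 0.321 to 0.695 CPM over those of phod1, with phod1 3 at the floor. It was called higher (adjusted p = 0.0171 by edgeR), and CRU1 did not pass. Because the filter favoured counts high in phod1, nothing is concluded from the CRU3 call. OLEO2 was at 0 in every library, and OLEO2, OLEO1, CRU3 and PER1 were at 0 in all WT libraries. Of all genes tested, 14.6% were called higher and 13.0% lower. The part of green, root, guard cell or seed tissue in the results below was not tested.

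The phod1 shoots held less transcript of NCED3 and of the transcription factor gene RD26, and more of RD22 and of the phosphatase gene HAI2. NCED3 stood 3.76-fold lower and RD26 2.83-fold lower, whereas RD22 stood 2.04-fold higher and HAI2 1.92-fold higher. ABI1, ABI2, HAB1, HAI1 and RD29B did not pass the test, which does not show that their levels were alike. Among the 9 tested members 2 were called higher, where 14.6% of all genes tested were, and 2 were called lower, where 13.0% were. The 4 calls make 44.4% of the members tested, against 27.7% of the 10803 genes tested (edgeR's quasi-likelihood test, adjusted p under 0.05). The median log2 fold change of the 9 was -0.17, beside 0.014 for all genes tested, and the median size of the change was 0.38 beside 0.41. In whole shoots, fewer cells of a type and less RNA per cell cannot be told apart. The labels do not tie the libraries to separate cultures. The p-values therefore refer to the spread of these 6 samples only, part of which may be technical.

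**Figure D1:**
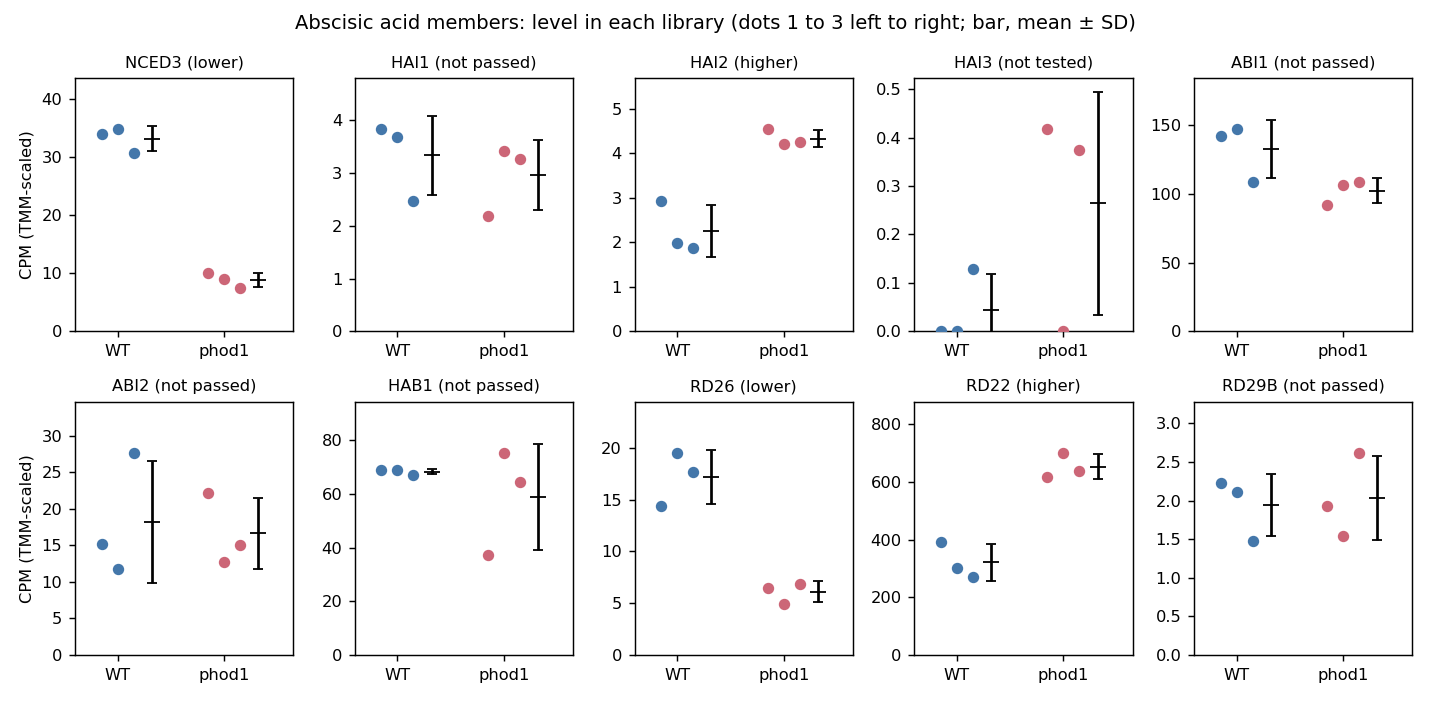
Level of each of the 10 members in CPM (y axis, linear from 0, a separate scale per panel) in the WT (blue) and phod1 (red) libraries, with replicates 1 to 3 from left to right and the mean ± SD beside them. NCED3 and RD26 are lower in all 3 phod1 libraries, RD22 and HAI2 are higher in all 3, and the points of HAI1, HAI3, ABI2, HAB1 and RD29B overlap.

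**Figure D2:**
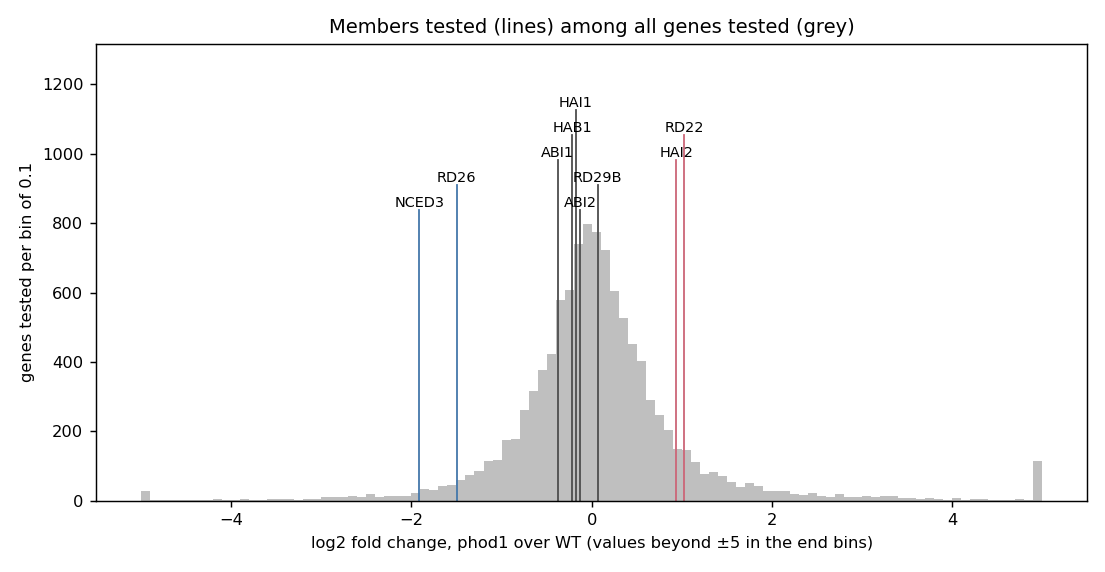
Histogram of log2 fold changes (phod1 over WT, x axis) of the 10803 genes tested in bins of 0.1 (y axis, genes per bin), with a vertical line for each of the 9 tested members. NCED3 and RD26 lie in the left tail, HAI2 and RD22 on the right shoulder, and the other 5 lines are dark grey and lie between -0.38 and 0.07.

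The sequences before the 4 genes that passed, and before RD29B as the textbook ABRE gene that did not, are shown because the hormone acts on transcription through this element. Each is the window of 250 bases that ends just before the annotated gene start, read in the direction of the gene by locus identifier from the RefSeq reference TAIR10.1. The submitters name TAIR10, so no coordinates are given. Capitals mark the ABRE core, ACGTG, on either strand.
NCED3: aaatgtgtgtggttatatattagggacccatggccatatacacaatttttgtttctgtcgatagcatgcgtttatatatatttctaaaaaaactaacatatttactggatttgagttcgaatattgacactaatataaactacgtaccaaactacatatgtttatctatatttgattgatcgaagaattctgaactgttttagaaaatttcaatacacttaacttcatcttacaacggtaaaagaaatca
RD26: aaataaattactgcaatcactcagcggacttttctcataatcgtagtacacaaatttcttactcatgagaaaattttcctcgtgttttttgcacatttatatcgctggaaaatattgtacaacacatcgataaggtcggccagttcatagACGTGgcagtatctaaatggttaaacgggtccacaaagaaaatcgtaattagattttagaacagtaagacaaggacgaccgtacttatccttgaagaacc
RD22: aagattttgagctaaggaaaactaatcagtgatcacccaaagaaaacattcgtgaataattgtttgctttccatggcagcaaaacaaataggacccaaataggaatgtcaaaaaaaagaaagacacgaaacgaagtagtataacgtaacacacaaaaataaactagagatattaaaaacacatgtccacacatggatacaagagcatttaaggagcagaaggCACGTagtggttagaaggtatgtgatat
HAI2: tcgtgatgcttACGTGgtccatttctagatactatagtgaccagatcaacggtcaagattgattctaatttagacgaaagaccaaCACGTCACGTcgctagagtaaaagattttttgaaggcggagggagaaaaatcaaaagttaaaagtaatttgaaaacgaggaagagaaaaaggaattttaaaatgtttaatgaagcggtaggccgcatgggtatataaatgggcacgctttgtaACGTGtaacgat
RD29B: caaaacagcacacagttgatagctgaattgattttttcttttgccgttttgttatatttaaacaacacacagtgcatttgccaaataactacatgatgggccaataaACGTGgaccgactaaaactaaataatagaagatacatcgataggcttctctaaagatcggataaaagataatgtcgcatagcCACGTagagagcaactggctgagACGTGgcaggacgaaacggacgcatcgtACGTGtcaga
HAI2 and RD29B each held 4 matches to the core, RD26 and RD22 held 1 each, and NCED3 held none. Over all 10 members 6 windows had the core, as did 22.9% of the windows of 27443 protein-coding genes, and the other two members with a match were HAI3 with 2 and HAB1 with 1. The genes with the most matches therefore include one that rose, HAI2, and one that did not pass, RD29B. The hexamer CACATG, known as a MYC site of the RD22 promoter, occurred 2 times before RD22, between 72 and 57 bases from the start, and before no other member (11.1% of all windows). CCGAC, the core of the element bound by DREB and CBF factors, was found before RD26 and RD29B (12.0% of all windows). GNATATNC, known as the site of the phosphate regulator PHR1, was found in none of the 10 windows and in 5.46% of all windows. Both strands were searched, and no marked match overlapped another motif. A match is a run of letters and not a shown binding site, and its absence says only that these letters are not in this window.

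NCED3 encodes the 9-cis-epoxycarotenoid dioxygenase that limits the rate of stress-induced abscisic acid synthesis in leaves. Its level was 33.9, 34.8 and 30.7 CPM in WT 1 to 3 and 10.005, 8.94 and 7.48 CPM in phod1 1 to 3. The groups lay far apart, with the lowest WT library well above the highest phod1 library. The mean fell from 33.1 ± 2.16 to 8.81 ± 1.27 CPM (SD, n = 3 each), a log2 difference of -1.91 (SE 0.141, adjusted p = 5.8e-04 by edgeR). Of all genes tested, 2.2% had a fold change as low or lower. The authors' deposited table puts the log2 fold change at -1.92 (SE 0.166, adjusted p = 2.8e-29). The nearest annotated genes on either side lie 6372 and 15523 bases away, so no neighbour adjoins the NCED3 model.

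Other steps of synthesis moved in both directions. Of 8 tested genes of the synthesis list, 3 fell, 1 rose and 4 did not pass, where 13.0% of all genes tested were lower and 14.6% higher. The list had a median log2 fold change of 0.013, or -0.30 without ABA4, beside 0.014 for all genes. ABA1, the zeaxanthin epoxidase of the xanthophyll cycle that acts upstream of NCED3, stood at 454, 580 and 473 CPM in WT and at 248, 258 and 216 CPM in phod1. It fell by 1.06 on the log2 scale (SE 0.127, adjusted p = 0.0029). ABA2, the cytosolic dehydrogenase that acts on xanthoxin, the NCED product, fell from 54.6 ± 3.39 to 36.9 ± 3.45 CPM (SD, n = 3 each; log2 -0.57, SE 0.109, adjusted p = 0.0137). The step after it is carried out by AAO3, whose sulfurated cofactor depends on ABA3. ABA3 rose from 4.77 ± 0.290 to 6.92 ± 0.276 CPM (SD, n = 3 each; log2 0.54, SE 0.124, adjusted p = 0.0255), and its call was lost without any one of the 6 libraries (adjusted p from 0.0523 to 0.0847). AAO3 did not pass at a log2 fold change of -0.30 (adjusted p = 0.215). Among the other NCED genes, NCED5 stood at 0 to 0.290 CPM over the WT libraries and 0.428 to 0.575 CPM over those of phod1, near the floor, and NCED2, NCED6 and NCED9 held too few counts to be tested. ABA4 gives no usable value, since it read 28.6 CPM in WT 1 and 16686 to 21697 CPM in the other 5 libraries. Those 5 readings exceed every reading of the green tissue marker RCA (6506 to 14251 CPM). Which of the ABA4 values are at fault was not tested.

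Hormone level also depends on removal and transport. Of 6 genes of the breakdown list, 2 fell and 4 did not pass (median log2 fold change 0.077), where 13.0% of all genes tested were lower. CYP707A3, an abscisic acid 8'-hydroxylase gene of vegetative tissue, stood at 9.93, 9.33 and 11.05 CPM in WT and at 0.653, 0.567 and 0.321 CPM in phod1. Every phod1 library lay far below every WT library, and phod1 3 stood at the floor of 3 fragments. The log2 fold change was -4.29 (SE 0.289, adjusted p = 4.6e-04). CYP707A2, known for hormone removal in seeds, fell from 11.5 ± 1.44 to 3.35 ± 0.556 CPM (SD, n = 3 each; log2 -1.78, SE 0.184, adjusted p = 0.00181). The other two hydroxylase genes did not pass, CYP707A1 at a log2 fold change of 0.69 (adjusted p = 0.168) and CYP707A4 at 0.31 (adjusted p = 0.48). Both exporters of the transport list passed, in opposite directions, and the 2 importers did not, where 27.7% of all genes tested passed. ABCG25, the exporter of vascular cells, rose from 19.4 ± 2.36 to 37.1 ± 4.06 CPM (SD, n = 3 each; log2 0.94, SE 0.139, adjusted p = 0.00588). DTX50, an efflux carrier of the MATE family, fell from 10.9 ± 1.30 to 5.07 ± 0.293 CPM (SD, n = 3 each; log2 -1.10, SE 0.142, adjusted p = 0.00359).

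The receptors act ahead of the phosphatases in the chain. Of 10 tested PYR/PYL genes 3 rose, 1 fell and 6 did not pass, where 14.6% of all genes tested were higher and 13.0% lower. Their log2 fold changes had a median of 0.023, or of 0.057 without PYL1. PYL4 stood at 102, 99.0 and 111 CPM in WT and at 228, 216 and 217 CPM in phod1. It rose by 1.09 on the log2 scale (SE 0.0768, adjusted p = 5.2e-04), with no overlap of the genotypes. PYL5 (log2 0.59, SE 0.0889, adjusted p = 0.00629) and PYL6 (log2 0.92, SE 0.153, adjusted p = 0.00874) rose with it. PYL7 fell from 42.5 ± 6.70 to 27.9 ± 1.41 CPM (SD, n = 3 each; log2 -0.60, SE 0.141, adjusted p = 0.0264), and this call was lost without any one library other than WT 2 (adjusted p from 0.0669 to 0.0832). PYL1 gives no usable value, with 0.854 to 58.8 CPM in libraries that did not divide by genotype.

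Of the 9 clade A PP2C genes 7 were tested, and of these HAI2 alone passed in edgeR, where 27.7% of all genes tested did. HAI3 and AHG1 held too few counts. The HAI phosphatases form a branch of clade A that is strongly induced by abscisic acid and drought. HAI2 stood at 2.93, 1.98 and 1.87 CPM in WT 1 to 3 and at 4.55, 4.20 and 4.25 CPM in phod1 1 to 3. All phod1 libraries were above all WT libraries, and WT 1 was the highest of its group. The mean rose from 2.26 ± 0.581 to 4.33 ± 0.187 CPM (SD, n = 3 each), a log2 difference of 0.94 (SE 0.221, adjusted p = 0.0268), and the authors' deposited table gives 0.94 (SE 0.257, adjusted p = 0.00138). In edgeR the call was lost without any one library other than WT 1 (adjusted p from 0.0668 to 0.0852, log2 fold change 0.82 to 0.96), and without WT 1 it held (log2 1.17, adjusted p = 0.0131). HAI2 adjoins SMO2-1, a sterol methyl oxidase gene on the other strand 243 bases away, which stood at 20.6 to 24.1 CPM over the WT libraries and 9.79 to 18.3 CPM over those of phod1. Whether reads of SMO2-1 entered the HAI2 count was not tested.

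Its closest relatives gave no call. HAI1, also known as SAG113 for its part in leaf senescence, stood at 3.84, 3.69 and 2.48 CPM in WT and at 2.19, 3.43 and 3.26 CPM in phod1. The groups overlapped, with a log2 change of -0.17 (SE 0.269, adjusted p = 0.692). An annotated gene on the same strand, AT5G59210, lies 634 bases from HAI1 and has no row of counts. HAI3 held 0, 0 and 4 units in WT and 16, 0 and 14 units in phod1. These values lie around the floor of 12 units. HAI3 did not pass the low-count filter, so it was not tested and no fold is given. SMO2-2, on the other strand 157 bases from HAI3, stood at 14.3 to 18.0 CPM over the WT libraries and 7.83 to 15.2 CPM over those of phod1. Whether reads of AT5G59210 entered the HAI1 count, or reads of SMO2-2 the HAI3 count, was not tested.

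ABI1 and ABI2 encode the phosphatases first found through hormone-insensitive mutants, and HAB1 a homolog with a broad role in hormone sensitivity. ABI1 stood at 143, 147 and 109 CPM in WT and at 92.0, 107 and 108 CPM in phod1. The 2 groups met at WT 3, which stood just above phod1 3, and did not overlap. The log2 fold change was -0.38 (SE 0.144) and did not pass (adjusted p = 0.111), although it did without WT 3 (log2 -0.50, adjusted p = 0.0301). The ABI1 model overlaps that of the kinase gene MEK1 on the other strand by 22 bases, and MEK1 stood at 1.06 to 13.8 CPM over all libraries. ABI2 stood at 15.2, 11.7 and 27.7 CPM in WT and at 22.1, 12.7 and 15.02 CPM in phod1. One library of each genotype stood above its sisters, the groups overlapped, and the log2 fold change of -0.13 (SE 0.378, adjusted p = 0.845) turned to 0.31 without WT 3. The next gene on the same strand, AT5G57060, lies 277 bases from ABI2 and has no row in the count table. Whether its reads entered the ABI2 count was not tested. HAB1 stood at 68.8, 69.0 and 67.1 CPM in WT and at 37.1, 75.3 and 64.2 CPM in phod1. The WT libraries lay close together, phod1 1 stood apart as the lowest, and the log2 fold change was -0.21 (SE 0.258, adjusted p = 0.602), or 0.030 without phod1 1.

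Of the 9 members tested, 5 had no overlap between genotypes, namely the 4 that passed and ABI1, where 47.6% of all genes tested had none. Per kilobase of exon, RD22 was the most abundant member in WT (186 CPM per kilobase), followed by ABI1 (61.2), HAB1 (24.4), NCED3 (12.1), RD26 (9.07) and ABI2 (7.97). HAI1 (1.60), HAI2 (1.19), RD29B (0.893) and HAI3 (0.0287) stood below them. The ranges of ABI2 overlapped those of NCED3 and RD26, and the ranges of HAI1 and HAI2, and of HAI2 and RD29B, overlapped too. In phod1 HAI2 (2.27) stood above HAI1 (1.42) with no overlap, and NCED3 (3.23) and RD26 (3.21) could not be told apart and stood below ABI2 (7.28).

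**Figure D3:**
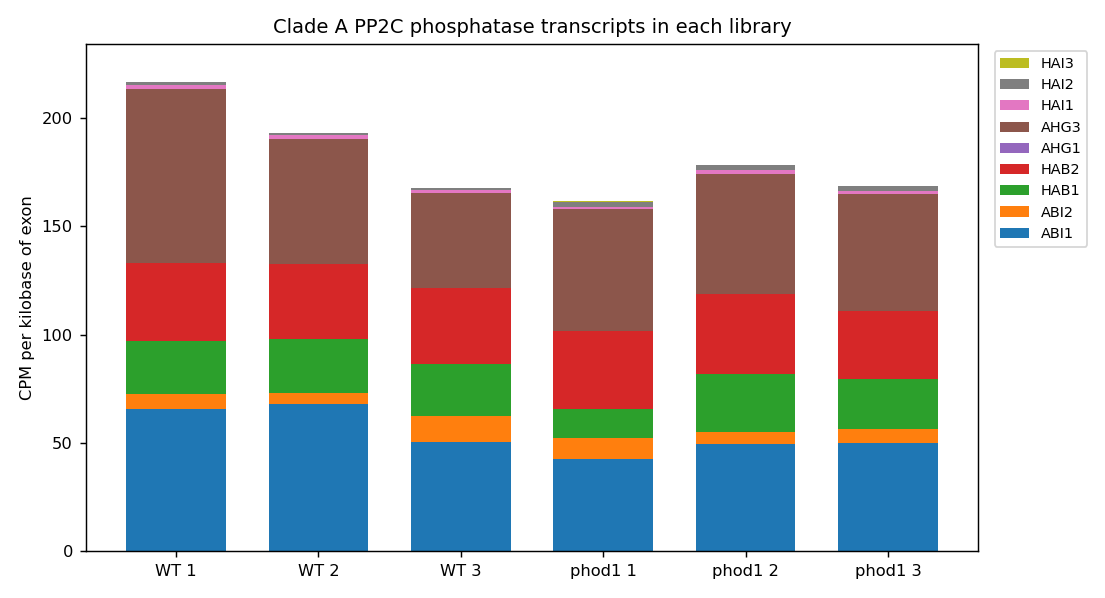
Stacked level of the 9 clade A PP2C genes in CPM per kilobase of exon (y axis, linear from 0) in each of the 6 libraries (x axis). AHG3, ABI1, HAB2 and HAB1 make up most of every bar, and the 3 HAI genes are thin layers near the top.

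The summed level of the 9 clade A phosphatase genes was 193 ± 24.6 CPM per kilobase in WT and 170 ± 8.24 in phod1 (SD, n = 3 each), with ranges that overlapped. AHG3, a phosphatase of seeds and guard cells, held 26.2% to 37.0% of this sum in WT and 31.2% to 34.8% in phod1, and ABI1 held 29.9% to 35.1% and 26.2% to 29.6%. AHG3 did not pass at a log2 fold change of -0.14 (adjusted p = 0.705). HAI2 held 0.539% to 0.708% in WT and 1.24% to 1.47% in phod1. None of the 3 SnRK2 kinase genes, the targets of these phosphatases, passed in edgeR, where 27.7% of all genes tested did. Their log2 fold changes ran from -0.60 to 0.32. The authors' deposited table does list SNRK2.3 as lower (log2 -0.61, SE 0.239, adjusted p = 0.0344), beside an adjusted p of 0.0784 in edgeR. Of 6 tested transcription factor genes downstream, ABF1 fell from 65.2 ± 8.37 to 34.8 ± 2.01 CPM (SD, n = 3 each; log2 -0.91, SE 0.123, adjusted p = 0.00432) and 5 did not pass. Of all genes tested 13.0% were lower. Among these 5 factor genes, ABF2 read 5.76 CPM in WT 2 beside 42.8 and 37.1 CPM in WT 1 and WT 3. ABF3 read 34.0 CPM in WT 3 beside 157 and 158 CPM in WT 1 and WT 2, and 62.7, 68.4 and 73.0 CPM in phod1 1 to 3. Without WT 3, 2 of the factor genes were called lower in place of 1.

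RD26 (ANAC072) is a NAC transcription factor gene induced by drought, salt and abscisic acid, which also takes part in senescence. It stood at 14.4, 19.5 and 17.7 CPM in WT and at 6.50, 4.94 and 6.82 CPM in phod1. The highest phod1 library lay below the lowest WT library by a wide gap. The mean fell from 17.2 ± 2.59 to 6.09 ± 1.00 CPM (SD, n = 3 each), a log2 difference of -1.50 (SE 0.188, adjusted p = 0.00334), and the authors' deposited table gives -1.51 (SE 0.222, adjusted p = 1.5e-10). Its annotated neighbours AT4G27400 and AT4G27415 were at 0 in all libraries.

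RD22 went the other way. It encodes a BURP domain protein and is used as a marker of the slower, MYC- and MYB-dependent branch of the response. Its level was 391, 301 and 270.2 CPM in WT and 617, 702 and 639 CPM in phod1. Every phod1 library was above every WT library, of which WT 1 was the highest. The mean rose from 321 ± 62.7 to 653 ± 43.8 CPM (SD, n = 3 each), a log2 difference of 1.03 (SE 0.152, adjusted p = 0.00589), and the authors' deposited table gives 1.02 (SE 0.186, adjusted p = 4.4e-07).

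RD29B encodes a hydrophilic stress protein and is known to be induced through ABREs in its promoter, with little input from the cold pathway. It stood at 2.22, 2.11 and 1.48 CPM in WT and at 1.93, 1.55 and 2.62 CPM in phod1, which overlapped. The log2 fold change was 0.066 (SE 0.289, adjusted p = 0.898), and it turned to -0.16 without phod1 3 and to -0.092 without WT 3. RD29A, its tandem neighbour, which also answers to cold, stood at 36.8 to 72.6 CPM over the WT libraries and 51.3 to 99.9 CPM over those of phod1 and did not pass (log2 0.22, adjusted p = 0.714).

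Of the other 18 tested genes of the responsive list, 3 rose, 1 fell and 14 did not pass. The shares over all genes tested were 14.6% higher and 13.0% lower. All 21 tested genes of this list together had log2 fold changes with a median of -0.081, or of 0.066 without COR15A and COR47. The lipid transfer protein gene LTP3 rose from 4.03 ± 0.313 to 12.4 ± 2.17 CPM (SD, n = 3 each; log2 1.62, SE 0.177, adjusted p = 0.00208). LTP4, its close copy, stood at 1.75, 1.64 and 0.322 CPM in WT, the last below the floor, and at 32.6, 32.3 and 35.0 CPM in phod1 (log2 4.74, SE 0.602, adjusted p = 0.00351). The sources used here do not give how reads were divided between LTP3 and LTP4, so their separate values are uncertain. GBF3, a bZIP factor gene induced by the hormone, rose from 3.75 ± 0.812 to 7.88 ± 1.05 CPM (SD, n = 3 each; log2 1.07, SE 0.214, adjusted p = 0.0157), and its call was lost without phod1 2 (adjusted p = 0.0522). AFP3, of the family that binds and restrains the factor ABI5, fell from 16.0 ± 2.76 to 6.30 ± 0.553 CPM (SD, n = 3 each; log2 -1.34, SE 0.166, adjusted p = 0.00316). Among the genes that did not pass, the authors' deposited table lists the proline synthesis gene P5CS1 as lower (log2 -0.66, SE 0.247, adjusted p = 0.0277). It lists the homeobox factor gene ATHB7 as higher (log2 1.26, SE 0.501, adjusted p = 0.0385). Deposited values of the other genes of the list that did not pass are not given here. The DESeq2 test run here called 5 genes of the whole list higher and 4 lower, in place of 4 and 2 in edgeR. COR47 and COR15A had 1 library at least 8-fold from both sister libraries, phod1 1 and phod1 3 respectively, and did not pass.

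**Figure D4:**
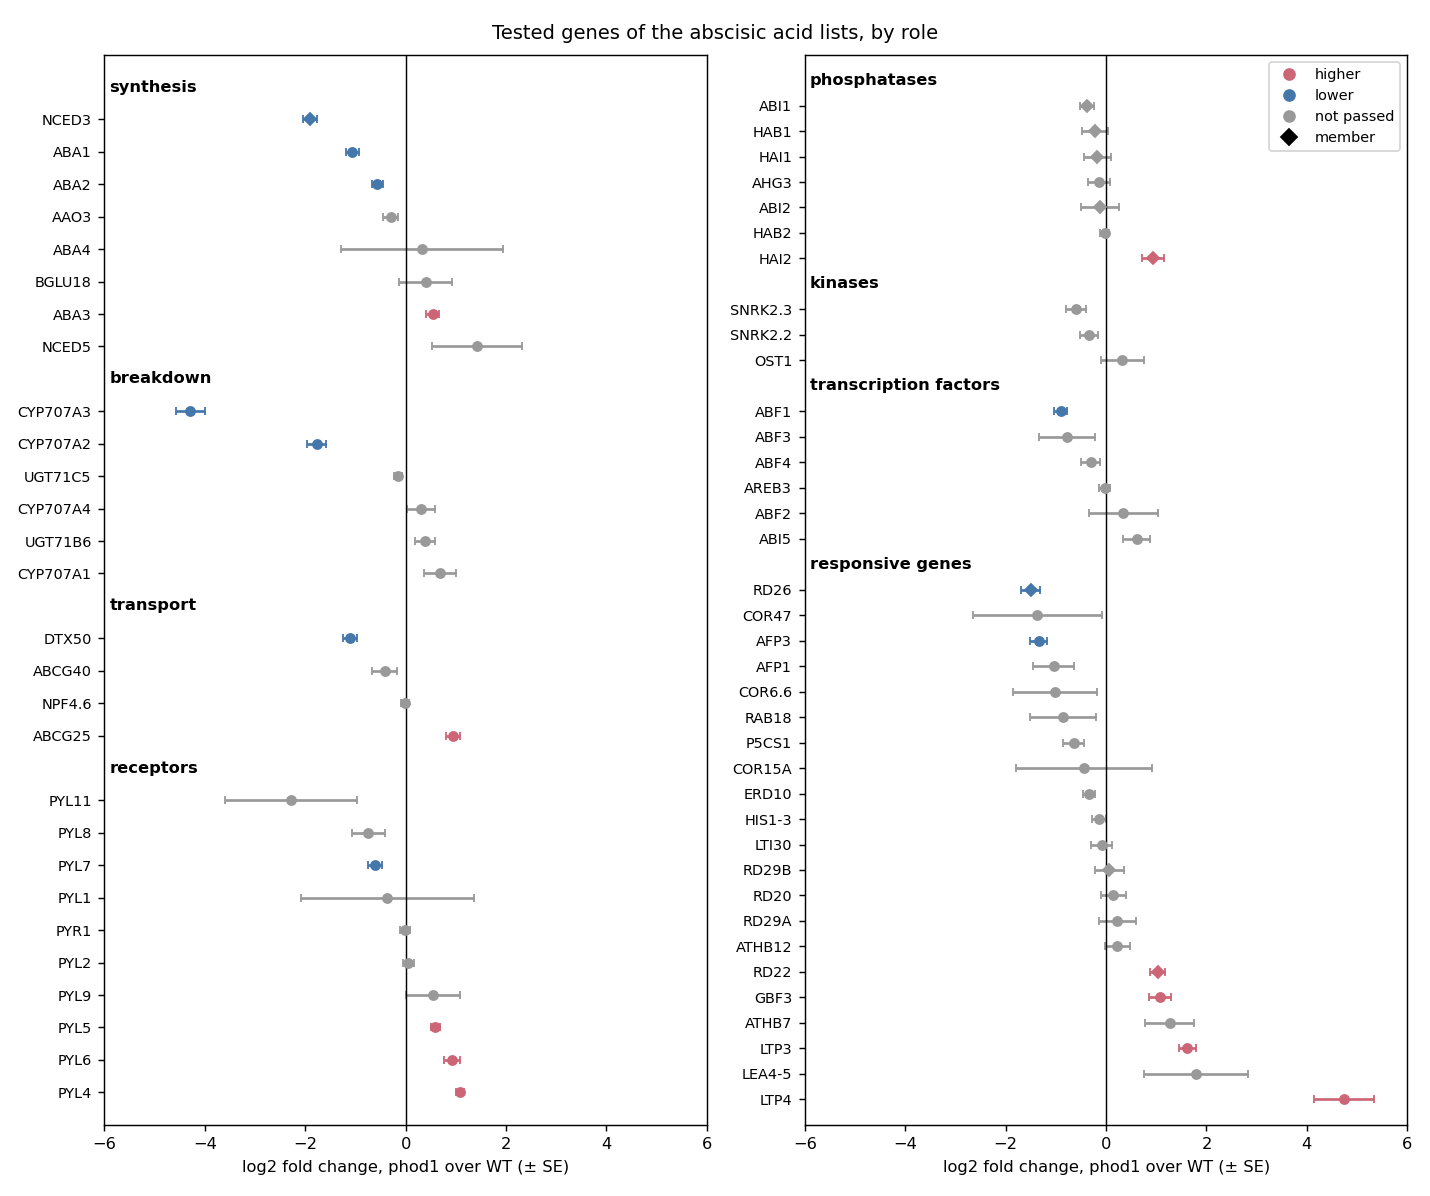
Log2 fold change of phod1 over WT ± SE (x axis) for the 65 tested genes of the abscisic acid lists, grouped by role (rows), with called genes in red (higher) or blue (lower), others in grey, and members as diamonds. NCED3, ABA1 and ABA2 of synthesis and CYP707A3 and CYP707A2 of breakdown lie to the left, PYL4, PYL5 and PYL6 to the right, and most phosphatases near 0.

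Over the 8 lists together, 10 of 65 tested genes rose, 10 fell and 45 did not pass, which makes 30.8% called, near the 27.7% of all genes tested. The median log2 fold change was -0.13. The 3 genes outside the lists whose profile over the 6 libraries lay nearest to that of NCED3 were SAUR22, DIC2 and HCF173, at root mean square differences of 0.0621, 0.0772 and 0.101 in centred log2 CPM. These genes were picked by this distance, so a fall in phod1 close to that of NCED3 is built into the choice. Shared control with NCED3 was not tested. SAUR22 is a small auxin-up RNA gene, DIC2 encodes a mitochondrial dicarboxylate carrier, and HCF173 a chloroplast factor needed for photosystem II.

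**Figure D5:**
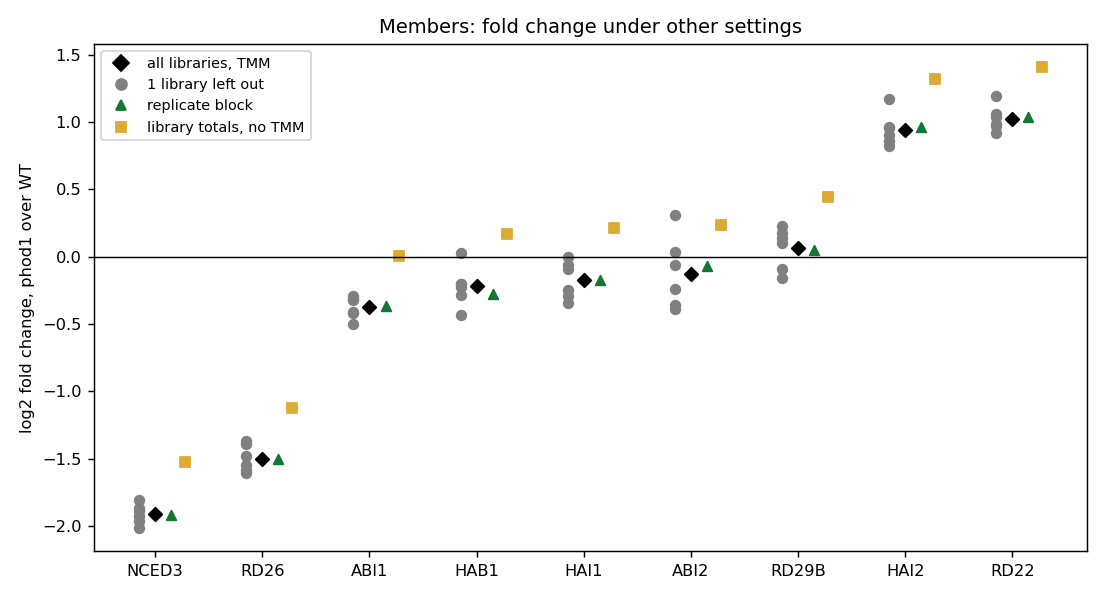
Log2 fold change of each tested member (y axis; members in order along the x axis) with all libraries and TMM scaling (black diamonds), with 1 library left out (grey circles), with a replicate block (green triangles) and with library totals alone (yellow squares). NCED3 and RD26 stay below 0 and HAI2 and RD22 above 0 under each of these settings, while ABI1, HAB1, HAI1, ABI2 and RD29B lie within about 0.5 of 0.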

How the data were processed

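Per the labels, shoot RNA was purified on columns, treated with DNase and made into Illumina libraries. The authors deposited estimated counts per gene and library, whole numbers that are not normalized. CASAVA 1.4, STAR, StringTie and TAIR10 appear in the submitters' processing notes with no role or order. The sources used here do not give the counting command, annotation or strand setting, so reads of overlapping models on opposite strands cannot be told apart. The value 4 occurred 1703 times, 3 only 562 times and 5 only 832 times, so 1 fragment was taken as 4 units. The authors also deposited their own comparison, which per the file headers gives log2 fold changes with errors, p-values, a test score (fold change divided by its error) and a mean normalized count as a signal; its 3902 genes have adjusted p up to 0.04998.

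Here, all 6 libraries, grouped by the genotype in the labels, entered 1 two-sided quasi-likelihood fit of edgeR 4.0.16 in R 4.3.3 (glmQLFit and glmQLFTest on TMM-scaled counts), with genotype as its single term. The plan had assumed counts of reads, and its test was used unchanged on the estimated counts, which needed no rounding. Of 21693 rows, 7887 held no count and 10803 passed filterByExpr (minimum count 10, minimum total 15). P-values were adjusted by Benjamini-Hochberg over all genes tested, with a threshold of 0.05. CPM values use TMM-scaled library sizes, the SE is the absolute log2 fold change over the root of the F statistic, and levels per kilobase use the union of exons in the RefSeq annotation TAIR10.1, in which 20318 rows had a locus. Alternatives were DESeq2 1.42.0, its size factors, no low-count filter, counts divided by 4, a replicate block, each library left out, and, added after seeing the data, library totals without TMM. The fit was tested on simulated counts. Deviations of same-numbered WT and phod1 libraries from their group means correlated at -0.051 to 0.0074, so the numbers were not treated as pairs.

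The members and lists were chosen with earlier results of these data known. The genes named are the members, up to 4 called genes per list by smallest p, RD29A, AHG3, the CYP707A genes, adjoining models and the 3 profiles nearest to NCED3 (prior count 4). AAO3, the other NCED genes, ABA4, PYL1, ABF2, ABF3, COR47, COR15A, EXPA7, PYK10, RCA, GC1, FAMA, AHG1, SNRK2.3, P5CS1, ATHB7 and the seed markers were named after their values were seen.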

Additional observations from a re-analysis of the deposited data

How the results depend on the processing

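The calls of NCED3, RD26 and RD22 held under every alternative run, including each library left out, where NCED3 ranged from -2.01 to -1.81, RD26 from -1.61 to -1.37 and RD22 from 0.92 to 1.20 (log2). HAI2 ranged from 0.82 to 1.17 with 1 library left out, and its call was lost in 5 of these 6 fits and with the replicate block (log2 0.96, adjusted p = 0.0678), so that 1 to 2 members were called higher with a library left out and 1 with the block. Called lower were 2 to 3, since ABI1 passed without WT 3. Of the members that did not pass, ABI1 stayed negative under each alternative other than library totals, and the other 4 changed sign. With a library left out HAI1 ranged from -0.34 to 8.3e-04, HAB1 from -0.43 to 0.030, ABI2 from -0.39 to 0.31, RD29B from -0.16 to 0.23, ABI1 from -0.50 to -0.29, RD29A from -0.17 to 0.42 and AHG3 from -0.32 to 0.12. Library totals without TMM raised the median of all genes by 0.379, so changes are relative to that shift. They turned HAI1 to 0.21, ABI1 to 0.0079, ABI2 to 0.24, HAB1 to 0.17 and AHG3 to 0.25. They gave 3544 genes higher and 618 lower in place of 1581 and 1407. Of the abscisic acid lists 18 genes were higher in place of 10. Among the called genes of these lists ABA2 and PYL7 lost their calls. With the replicate block 788 genes were higher and 712 lower. Among the 20 called genes of the abscisic acid lists, HAI2, ABA2, ABA3, PYL7 and GBF3 lost their calls. The calls of tissue markers and of the genes nearest to NCED3 were not followed under the alternatives. Same-numbered libraries did not deviate together, so the block takes degrees of freedom without a shown pairing. With a library left out 1101 to 1351 genes were higher and 1027 to 1180 lower, and of the abscisic acid lists 7 to 10 were higher and 9 to 12 lower. Depth limits HAI3, at or under about 4 fragments, and the low phod1 levels of CYP707A3 and the seed markers.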
